A study of Mus musculus with 2 samples.

Results

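The microRNA genes Mir376c, Mir654, Mir376b, Mir376a, Mir300, Mir381, Mir487b and Mir539 form an unbroken run in the middle of the Mir379 to Mir410 cluster of the mouse. They were chosen by gene name in GENCODE M21, and all 8 names matched 1 gene each among the 2202 microRNA genes counted. The counts come from 2 small RNA libraries of left cerebral cortex taken from B6CASTF1/J females, an F1 cross of a laboratory and a wild-derived strain, at 25 days of age and with no treatment listed. Reads of the parental alleles were not told apart. The labels number the animals apart but give both the same donor record, so the spread between the libraries may be partly technical. No condition was compared, because the labels hold a single group.

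Genes of this cluster lie in the imprinted Dlk1-Dio3 domain, are transcribed from the maternal chromosome as long precursor RNA, and are abundant in brain. Each hairpin is cut out of the precursor by Drosha and trimmed by Dicer to short 5′ and 3′ arms, and a loaded arm finds its targets mainly through its seed, bases 2 to 8. In neurons the cluster is known to be raised by activity through the transcription factor Mef2, and precursors of the miR-376 family are known substrates of A-to-I editing by ADAR enzymes. Editing cannot be read from counts per gene and was not examined here.

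Sequences are shown first because they separate the genes whose reads can be told apart from those that nearly match. RefSeq (GRCm38.p6) lists a hairpin for all 8 genes, identical to the GENCODE transcript in each, and 13 mature arms, both arms for 5 genes and the 5′ arm alone for Mir376c, Mir487b and Mir539. The lines below give arms of the miR-376 family, the 3′ arms of Mir300 and Mir381, and the listed arm of the most abundant gene, 5′ to 3′ with the seed in capitals.
miR-376a-5p: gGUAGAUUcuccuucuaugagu
miR-376b-5p: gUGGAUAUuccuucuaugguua
miR-376c-5p: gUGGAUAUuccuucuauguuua
miR-376a-3p: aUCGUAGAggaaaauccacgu
miR-376b-3p: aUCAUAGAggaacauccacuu
miR-300-3p: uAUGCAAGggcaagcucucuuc
miR-381-3p: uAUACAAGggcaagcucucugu
miR-487b-5p: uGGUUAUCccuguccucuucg
All 8 genes are on the plus strand of chromosome 12, so the arms read as printed, for example miR-376a-3p at chr12:109723824-109723844 and miR-487b-5p at chr12:109727347-109727367.

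The 13 arms carried 12 different seeds. The shared seed, UGGAUAU, belonged to miR-376b-5p and miR-376c-5p, which differ over 22 bases by the single change U19G, counted from the 5′ end and written from miR-376c-5p to miR-376b-5p. The 3′ arms of Mir376b and Mir376a differ by A4G in the seed and by C13A and U20G outside it. In the same way miR-300-3p and miR-381-3p differ by G4A in the seed and by U21G and C22U at the 3′ end, so that 19 of their first 20 bases match. Outside the miR-376b-5p and miR-376c-5p pair, the seeds of the 13 arms matched no listed arm of another gene among the 1738 mature entries of RefSeq. None of the 13 arms was identical in full to an arm of another gene among these entries. The entries hold no 3′ arm for Mir376c, Mir487b or Mir539, so seeds of those arms were not compared. The Mir539 hairpin holds AUACAAG, the seed of miR-381-3p, past its listed 5′ arm. Hence UGGAUAU as the only shared seed holds for listed arms alone.

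Whole hairpins grouped in a like way. Global alignment placed Mir376b and Mir376c at 80.7% identity, the highest of the 703 pairs of hairpins in the cluster, and Mir300 and Mir381 at 73.8%, the third highest. Mir300 and Mir539 were at 70.4% and Mir381 and Mir539 at 68.4%, but Mir539 was closer to Mir382, outside the run, at 72.7%. Mir376a was less close to its namesakes, at 63.4% with Mir376b and 60.5% with Mir376c. Pairs within the run had a median identity of 58.1% (28 pairs, 46.3% to 80.7%), against 50.3% for pairs with 1 of the 8 genes and 49.4% for pairs with none. These values describe the annotation, and pairs that share a hairpin are not independent.

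**Figure D1:**
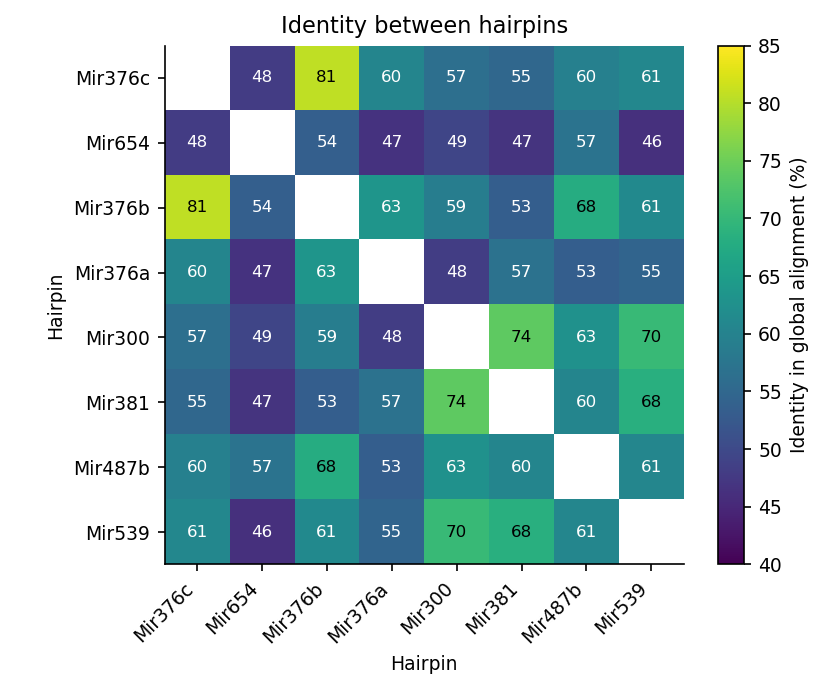
Percent identity of each pair of the 8 hairpins in a global alignment (color scale, with the rounded value in each cell), in order along the cluster on both axes. Mir376b with Mir376c and Mir300 with Mir381 stand out, at 80.7% and 73.8%.

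Reads that fit several places in the genome were set apart from the gene counts in the deposited tables, 40.3% of all reads in replicate 1 and 39.0% in replicate 2, so stretches common to more than 1 hairpin bear on these genes. Mir376b and Mir376c share 31 nt that hold the first 18 bases of their 5′ arms. Mir376b and Mir487b share 20 nt at the ends of their hairpins, which start within the miR-376b-3p arm and run on past its end. Neither stretch holds a whole listed arm. Hence 3 of the 8 genes share at least 20 nt with another counted hairpin on the same strand, Mir376b with both others and those with Mir376b alone. Both stretches are printed in lower case.
Mir376b and Mir376c: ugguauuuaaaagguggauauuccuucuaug
Mir376b and Mir487b: cauccacuuuuucaguauca
How many reads of these genes were set apart is not recorded per gene, and its part in their counts was not tested. Copies outside annotated microRNA genes were not looked for.

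The run was compact. From Mir376c to Mir539 it covered 5485 nt of the 34736 nt between the start of Mir379 and the end of Mir410 on mm10. Mir376c (ENSMUSG00000076006.2) lies at chr12:109722718-109722803, Mir654 (ENSMUSG00000077980.1) at chr12:109723218-109723301, Mir376b (ENSMUSG00000105853.1) at chr12:109723458-109723539 and Mir376a (ENSMUSG00000105178.1) at chr12:109723781-109723848. They are followed by Mir300 (ENSMUSG00000098807.2) at chr12:109724313-109724391, Mir381 (ENSMUSG00000098838.2) at chr12:109726822-109726896, Mir487b (ENSMUSG00000076219.1) at chr12:109727333-109727414 and Mir539 (ENSMUSG00000076063.1) at chr12:109728129-109728202. Gaps between neighbours were 156 to 714 nt, apart from 2430 nt between Mir300 and Mir381. None of the 8 lay in an exon or intron of an annotated gene on its strand. The noncoding gene Mirg, which hosts the distal genes of the cluster, starts 1562 nt past the end of Mir539.

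The hairpins of the run were 68 to 86 nt long with a median GC content of 38.3%, against 45.1% in the 15 cluster genes before the run and 43.6% in the 15 after it. Mir376c had the lowest GC content of the 38 cluster hairpins, at 29.1%. The predicted folding energy of Mir376a, -16.6 kcal/mol, was the weakest in the cluster, and that of Mir654 was -23.8 kcal/mol. The other 6 ranged from -35.5 to -29.3 kcal/mol.

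A gene with 10 or more counts in each library was taken as detected, which held for 7 of the 8 genes and for 395 of all 2202 (17.9%). Mir654 had no count. In the rest of the cluster 26 of 30 genes (86.7%) were detected, so detection did not set the run apart. Levels are given as CPM, each own-strand count scaled to its library's sum over all microRNA genes, which was 3017058 in replicate 1 and 3209361 in replicate 2. A CPM was not divided by gene length, because reads under 30 nt span a whole mature arm, and the order of the 8 genes was identical per kb of hairpin. A count joins both arms. In cortex tissue, fewer cells with a microRNA and less of it per cell cannot be told apart. Markers of the labelled tissue were present, with the 6 neuronal genes of a marker list at 20.3% and 19.0% of counts, nearly all from Mir139, Mir128-1 and Mir132, while the 3 Mir124a genes of the list stayed below 10 counts each. Astrocyte, oligodendrocyte, immune cell and endothelial lists held between 0.162% and 2.96%. Those of liver, muscle, red blood cells and pancreas or pituitary held between 0.00225% and 0.0168%, with Mir1a-1 and Mir133a-1 of the muscle list at 0.

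Mir487b was by far the highest of the 8 genes. It had 61194 counts in replicate 1 and 42942 in replicate 2, or 20283 and 13380 CPM (mean 16831 ± 4881, SD, n = 2). By mean it ranked 13 of 2202 genes, with rank 12 in replicate 1 and 17 in replicate 2. It had the top place in the cluster in both libraries. It held 85.2% and 78.5% of the counts of the 8 genes. It stood 10.6-fold above the next gene of the mean order, Mir376a, in replicate 1 and 15.4-fold above it in replicate 2. By mean, Mir487b lay between Mir433 at rank 12 and Mir125a at rank 14. It was 1 of 2 of the 8 genes whose mean reached 1000 CPM, the other being Mir376a.

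Of the miR-376 family, Mir376a was the highest and Mir376b the lowest in both libraries. Mir376a, whose edited 5′ arm is known to repress Prps1, a gene of nucleotide synthesis, gave 5755 and 2789 counts in replicates 1 and 2, or 1907 and 869 CPM (mean 1388 ± 734, n = 2). Mir376c gave 866 and 762 counts, or 287 and 237 CPM (mean 262 ± 35.1). Mir376b gave 310 and 446 counts, or 103 and 139 CPM (mean 121 ± 25.6). Mir376c was above Mir376b in both libraries, by 2.79-fold and 1.71-fold, and their ranges did not overlap. Together the family held 0.230% and 0.125% of all counts, of which Mir376a supplied 83.0% in replicate 1 and 69.8% in replicate 2.

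Mir300, Mir381 and Mir539 did not sit at a common level. Mir300 gave 2289 and 2894 counts, or 759 and 902 CPM (mean 830 ± 101, n = 2). Mir381 gave 1264 and 4506 counts, or 419 and 1404 CPM (mean 911 ± 697). Mir539 gave 179 and 359 counts, or 59.3 and 112 CPM (mean 85.6 ± 37.1). Mir539 was thus the lowest of the 7 detected genes in both libraries, while Mir381 was below Mir300 in replicate 1 and above it in replicate 2.

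Mir654, between Mir376c and Mir376b, had 0 counts on either strand in both libraries. With the floor set at 3 counts, the 0 counts do not exclude a level below 0.994 CPM in replicate 1 or 0.935 CPM in replicate 2, counting error alone considered. Its neighbours on each side, 414 and 156 nt away, were above 100 CPM in both libraries. Neither of its arms matched another gene in full, and it shared no stretch of 18 nt or more with another counted hairpin.

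**Figure D2:**
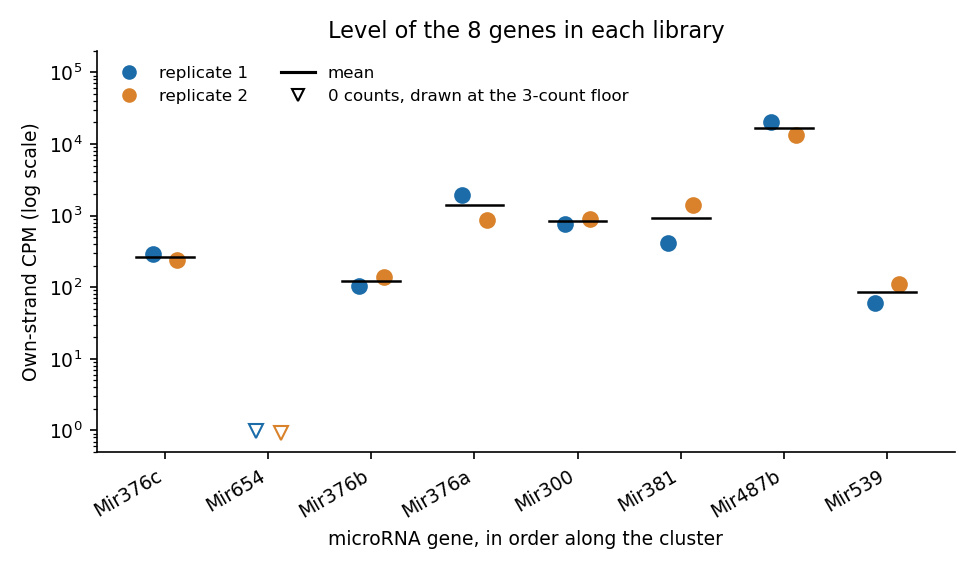
Own-strand CPM on a log axis for the 8 genes in order along the cluster, 1 point per library with the mean as a bar, and Mir654, at 0 counts, drawn as open triangles at the 3-count floor. Mir487b lies at 20283 and 13380 CPM, while the points of Mir376a and Mir381 lie on opposite sides of Mir300 between the libraries.

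The order of the 8 genes held in part. Of the 28 pairs of genes, 25 were in the same order in both libraries, and the 3 that turned were the pairs among Mir376a, Mir300 and Mir381. The ranges over the libraries overlapped for these 3 genes, whose order is not resolved. Those of Mir376b and Mir539 overlapped too, but within each library Mir376b was above Mir539, by 1.73-fold in replicate 1 and 1.24-fold in replicate 2. The steps from Mir487b down to Mir376a, from Mir300 to Mir376c, from Mir376c to Mir376b and from Mir539 to Mir654 had no overlap.

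Within the cluster, the run supplied 33.2% of counts in replicate 1 and 26.3% in replicate 2 (mean 29.8% ± 4.91, n = 2) from 8 of 38 genes. Of all microRNA gene counts it held 2.38% (exact 95% interval 2.36 to 2.40) in replicate 1 and 1.70% (1.69 to 1.72) in replicate 2, a mean of 2.04% ± 0.479 (SD). Without Mir487b the share of the other 7 genes was 0.353% and 0.366%. The 15 genes before the run, led by Mir411 at 5097 ± 154 CPM, held 1.49% of counts in both libraries, and the 15 after it, led by Mir382 at 11267 ± 904 CPM, held 3.29% and 3.28%. The lower share of the run in replicate 2 thus lay with Mir487b, which moved from 2.03% to 1.34% of all counts. The flanks' shares of all counts had SDs of 0.00250 and 0.00265 percentage points over the libraries. Of cluster counts, Mir487b moved from 28.3% to 20.7%. On that scale the part before the run rose from 20.9% to 23.0% and the part after it from 45.9% to 50.7%.

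The median gene of the run was at 546 CPM, beside 363 CPM before it and 533 CPM after it. On the proximal side Mir667, 2620 nt before Mir376c, was at 1165 ± 333 CPM. On the distal side Gm27379, 618 nt past Mir539, had 0 and 4 counts.

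**Figure D3:**
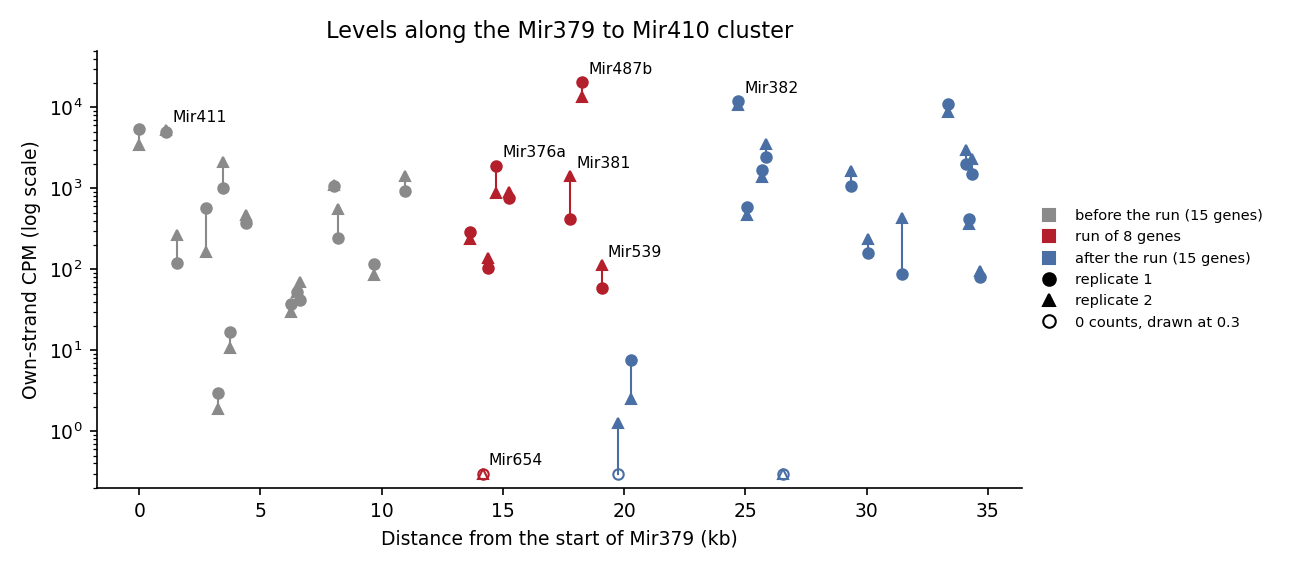
Own-strand CPM on a log axis against the distance in kb from the start of Mir379 for the 38 plus-strand genes of the cluster, circles for replicate 1 and triangles for replicate 2 joined by a line, with counts of 0 open at the bottom. The run (red) holds the highest gene of the cluster, Mir487b, and 1 of its 2 genes without counts, Mir654.

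Strand assignment decided whether Mir376a and Mir539 were seen at all. No gene of the run had a count on the opposite strand. GENCODE M21 places an antisense microRNA gene over Mir376a (Gm25252, chr12:109723756-109723875) and another over Mir539 (Gm44322, chr12:109728108-109728222), both on the minus strand. Gm25252 had 0 counts on its own strand, while its opposite-strand column held 5755 and 2789, the exact counts of Mir376a. For Gm44322 that column held 179 and 359, the exact counts of Mir539. In the column that ignores strand both genes had 0, and the reads over overlapping genes are ambiguous there. The other 5 genes with reads had equal counts in the own-strand and either-strand columns.

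The libraries were then compared with each other, which measures their agreement and no condition. Each log2 ratio has replicate 2 on top and carries a 95% counting interval. Library sizes were scaled by TMM, which lowered every ratio by 0.23 relative to library totals. Mir381 was higher in replicate 2 by 1.52 (interval 1.43 to 1.61), a 2.86-fold difference. Mir376a was higher in replicate 1, at -1.36 (-1.43 to -1.30), or 2.57-fold. These 2 of the 7 counted genes were over 2-fold apart, where 13.9% of the 231 genes averaging 50 CPM or more were, and by absolute ratio they ranked 12 and 14 of the 231.

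Mir487b was higher in replicate 1, at -0.83 (-0.85 to -0.81), and so was Mir376c, at -0.50 (-0.64 to -0.36). Mir539 was higher in replicate 2, at 0.69 (0.42 to 0.95). Mir376b, at 0.21 (-0.0053 to 0.42), and Mir300, at 0.021 (-0.059 to 0.10), had intervals that included 0. Of the Mir376 genes, Mir376a and Mir376c thus were higher in replicate 1, while no direction was resolved for Mir376b or for Mir300.

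A two-sided exact binomial test, with Benjamini-Hochberg adjustment over 496 genes, called 5 of the 7 counted genes, where 56.5% of all genes tested were called. Of the 5, Mir376c, Mir376a and Mir487b were higher in replicate 1, a direction taken by 30.6% of all genes tested, and Mir381 and Mir539 were higher in replicate 2, taken by 25.8%. The 56.5% takes in genes of low count, and the share called depends on that filter. Among genes with at least 50 counts in total, 259 of 341 were called, and 5 of the 7. With 7 genes, a count of 5 is not set above or below either share and is read as a description. The adjusted exact p was 8.5e-281 for Mir381, 8.64e-12 for Mir376c and 4.01e-07 for Mir539, against 0.0865 for Mir376b and 0.706 for Mir300. With library totals in place of TMM both were called, higher in replicate 2 (log2 ratios 0.44 and 0.25), and the balance over all genes moved from 152 higher in replicate 1 and 128 in replicate 2 to 102 and 180. With 1 library on each side, the test holds counting error only. The biological coefficient of variation over the 496 genes, which takes in the spread between libraries, was 36.7%.

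The median absolute log2 ratio of the 7 genes was 0.69, beside 0.59 for 12 genes before the run, 0.40 for 12 after it and 0.42 for all 231 genes at that level. In the other 30 genes of the cluster the test called 25 of 28, of which 13 were higher in replicate 1 and 12 were lower there.

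With 2 libraries each gene has 1 ratio, so likeness between genes is the distance between log2 ratios, given as a description. The cluster gene closest to Mir487b was Mir379 (-0.88), that closest to Mir376c was Mir668 (-0.49) and that closest to Mir300 was Mir410 (0.048). The nearest to Mir376a were Mir758 and Mir1197, tied at -0.90 and 0.46 away. These had few counts, 51 and 34 for Mir758 and 9 and 6 for Mir1197. The nearest to Mir381, Mir543 at 0.96, was 0.56 away. None of the 3 genes nearest to Mir376a, Mir376b or Mir376c was another of the 3.

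**Figure D4:**
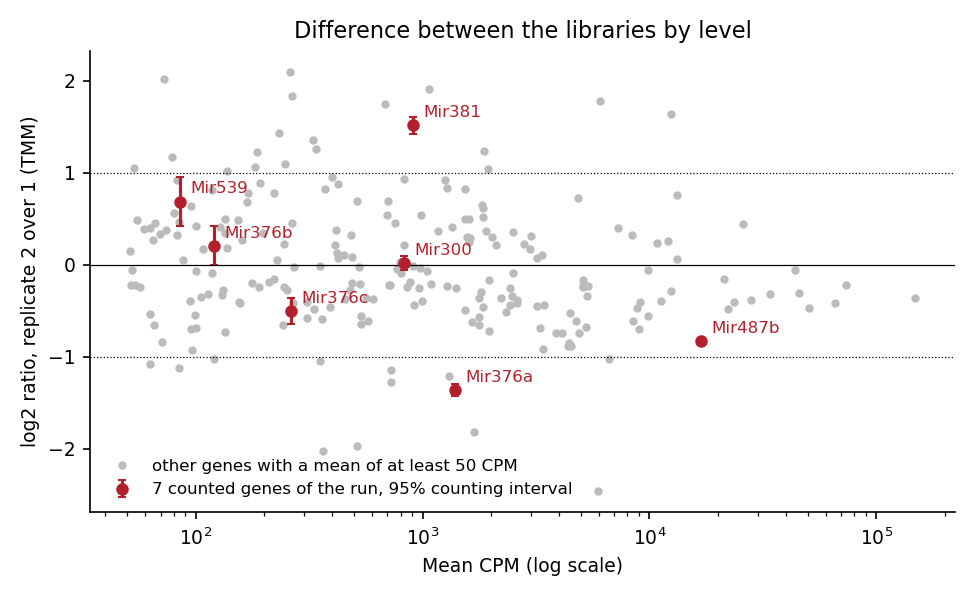
Log2 ratio of replicate 2 over replicate 1 after TMM scaling against mean CPM on a log axis, with the 7 counted genes of the run in red (bars, 95% counting intervals) and the other genes averaging 50 CPM or more in grey. Mir381 and Mir376a lie beyond the dotted lines at 2-fold, on opposite sides, and Mir300 lies at 0.021.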

How the data were processed

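The authors deposited 1 table of read counts per microRNA gene for each library, unnormalized, on mm10 with annotation M21, per the deposited file listings. For aligner and counter, names were not given in the sources used here. Own-strand counts were used, and the 4 rows of reads outside gene counts were left out of library sizes. The roles of the 3 columns were read from their values. The 8 genes, the cluster and marker lists and the tests were chosen with earlier results of these data known. Genes named beside the 8 were flanking, leading, overlapping, sequence-sharing or rank-adjacent genes, or those nearest in log2 ratio.

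TMM factors and exact binomial tests came from edgeR 4.0.16 in R 4.3.3, on genes whose counts in both libraries summed to 10 or more. Checks on simulated counts came first. The simulated counts held Poisson error alone, so the checks did not cover spread between libraries. Adjusted p under 0.05 was a call across all genes. Intervals for shares are Clopper-Pearson, and PCR copies make all intervals cover counting error only. Sequences came from RefSeq and GENCODE M21 transcripts. Folding used RNAfold 2.7.2, and DESeq2 1.42.0 size factors were an alternative, as were other columns, denominators, filters, stretch lengths and leaving out each library.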

Additional observations from a re-analysis of the deposited data

How the results depend on the processing

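With all reads as the denominator, the summed share of the 8 genes was 0.718% in place of 2.04%, because the denominator is larger. In the either-strand column Mir376a and Mir539, which overlap antisense genes, were at 0 CPM, so 5 genes were detected. Of the 5 tested there, 4 were called, beside 259 of all 473 genes tested in that column. With library totals Mir376b and Mir300 passed the threshold, at log2 ratios of 0.44 and 0.25. At 22 nt, 2 genes shared a stretch, against 3 at 20 nt. In all, 82 of 87 alternatives left their result within the spread between libraries, within 1.5 times a count, or on its side of the threshold. The 82 include means with 1 library left out, which with 2 libraries always move by less than 1 SD and say nothing on stability. They also include the settings of Mir654, at 0 CPM in each. Adding the opposite strand brought no count to any of the 8 genes, and dropping the 50 CPM minimum changed nothing, as each counted gene averaged above it. Detection minima of 1 or 100 counts changed nothing either, because Mir654 had 0 counts and each other gene had at least 179. Leaving 1 out moved the mean of Mir376a from 1388 to 869 CPM without replicate 1. That of Mir381 moved from 911 to 419 CPM without replicate 2 or 1404 CPM without replicate 1. The binomial comparison has no value without either library.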
